A study of Homo sapiens with 9 samples.

Results

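The nuclear genes that copy, transcribe and keep the RNA of the mitochondrial genome were followed through 9 RNA sequencing libraries of a breast cancer cell line. The 10 members were taken by gene symbol and known role, by a rule that uses no measured value, although earlier results of these data were known when they were chosen: TFAM, POLRMT, TFB2M, TFB1M, LRPPRC, SLIRP, SUPV3L1, PNPT1, TWNK and POLG, out of 59452 gene symbols in the count table. All 10 had a row and all 10 passed the filter on low counts.

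The cells were MDA-MB-453, an established breast cancer line that the labels call triple-negative and wild type, grown in DMEM with fetal bovine serum. Attached cultures received the vehicle, DMSO. Cells in forced suspension, kept from attaching by poly-HEMA coated plates, received DMSO or AT0174, an inhibitor of the tryptophan-catabolizing enzymes TDO2 and IDO, at 10 µmol/L. All were collected after 48 h as bulk RNA, with 3 libraries in each of the 3 groups. No attached culture with AT0174 was analysed here, so the inhibitor was compared in suspension only. The study describes the conditions of its bulk RNA sequencing as biological triplicates, and its experiments in general as triplicates run on independent occasions. The labels give no date or batch for a library, and the p-values measure the spread between these libraries.

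The mitochondrial genome is a small circular DNA that encodes subunits of the respiratory chain and the RNAs of its own ribosome, while every protein that copies or reads it comes from the nucleus. TFAM packages this DNA and bends it at the promoters, POLRMT is the RNA polymerase and TFB2M opens the promoter for it. The long transcripts are then cut at the tRNAs, the messengers are held by the LRPPRC and SLIRP complex, and surplus or antisense RNA is broken down by the SUPV3L1 helicase with the PNPT1 nuclease.

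Several of these genes are textbook targets of the nuclear factors NRF-1 and GABP (also called NRF-2), so the start regions of the members were read for their core letters before the levels were compared. RefSeq promoter windows on GRCh38.p14, 250 bases before to 50 bases after a start, were at hand for 9 members, and TWNK had none. The NRF-1 core, read as GCGC, then any base, then TGCGC, or its reverse complement, occurred in 5.78% of 35116 promoter windows of the same length, and the GABP core CCGGAAG in 10.3% on either strand. The windows of TFAM, POLRMT and TFB1M held the NRF-1 core, and those of POLRMT, TFB1M and SLIRP held the GABP core. POLRMT had a pair of NRF-1 matches that overlapped each other, of which the first is shown. The windows of TFB2M, LRPPRC, SUPV3L1, PNPT1 and POLG held neither string of letters. The matches are printed below in 30 bases each, 5′ to 3′ on the strand of the gene, with the core in capitals; they describe the letters only.
TFAM, NRF-1 core, chr10:58385337-58385366, plus strand: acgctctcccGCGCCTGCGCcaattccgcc
POLRMT, NRF-1 core, chr19:633542-633571, minus strand: ggcggcgcggGCGCATGCGCaggcgcgggc
TFB1M, NRF-1 core, chr6:155314597-155314626, minus strand: gcaggacttaGCGCATGCGCtctcagcacg
POLRMT, GABP core, chr19:633612-633641, minus strand: ctgggagtctaCTTCCGGctggggtttccc
TFB1M, GABP core, chr6:155314551-155314580, minus strand: cgcggtcatcgCTTCCGGtgggataggtct
SLIRP, GABP core, chr14:77708016-77708045, plus strand: taccctctgatCCGGAAGcagattctctcg

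The libraries held between 36650000 and 48019100 estimated counts. The luminal markers KRT8, KRT18, EPCAM and FOXA1 stood between 297 and 955 CPM (estimated counts scaled to the size of the library) in every library, whereas PTPRC, CD3E, PECAM1, VWF, PDGFRB and ACTA2 had at most 13 counts. Of these luminal markers, FOXA1 rose in suspended vehicle against attached cells by 0.26 on the log2 scale (adjusted p = 0.000114), a difference about as large as those of the members below, while KRT8, KRT18 and EPCAM lay between −0.0075 and 0.07 and were not called. The fibroblast collagen gene COL1A1, at 107 to 149 CPM, fell by 0.28 in the same comparison (adjusted p = 0.00182) and by 0.31 with AT0174 against attached cells (adjusted p = 0.000684). CD68 had 53 to 102 counts and was not called. The part of these markers in the results was not tested. Of the receptors that the triple-negative label refers to, ESR1 had at most 4 counts and PGR at most 18, but ERBB2 reached 1029 to 1082 CPM, which goes against that label at the RNA level. Genes of the mitochondrial genome took 7.56% to 9.32% of the counts in the attached libraries, 4.05% to 4.34% in suspended vehicle and 3.73% to 5.51% in suspended AT0174. In the attached group, replicate 3 had the highest such share and the lowest CPM of the 3 for 7 of the 10 members, so values without it are given where it decides a call. Among the AT0174 libraries, replicate 3 was likewise lowest for 7 members, and replicate 2 was highest for 7.

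The levels of the members were set side by side in TPM, which counts the transcripts of a gene against all transcripts of the library and is thus per length. SLIRP, a small RNA-binding protein, had the highest level in every group, with 233 ± 15.2 TPM (SD, n = 3) in attached cells, 276 ± 6.59 in suspended vehicle and 266 ± 9.93 in suspended AT0174. TFAM was next in every group, at 81.7 ± 5.94, 93.3 ± 1.42 and 91.2 ± 1.65 TPM. The middle of the order was held by LRPPRC, POLG, SUPV3L1 and POLRMT, between 33.2 and 62.2 TPM on average. PNPT1, TFB2M, TWNK and TFB1M were lowest, between 12.3 and 23.9 TPM on average, so that the methyltransferase TFB1M stood at 12.3 ± 1.13 TPM in attached cells against the polymerase POLRMT at 33.2 ± 0.385 TPM. Group means thus ran from 12.3 TPM for TFB1M in attached cells to 276 for SLIRP in suspended vehicle. TPM of nuclear genes also depend on the mitochondrial transcripts, whose share was lower in suspension. Without mitochondrial genes, TFAM had 99.0, 103.6 and 102.1 TPM in attached, suspended vehicle and suspended AT0174 cells. SLIRP had 282.8, 305.8 and 297.8 in the same order. On that scale POLG, at 61.0, 56.3 and 56.9, and SUPV3L1, at 46.7, 41.5 and 41.3, were lower in suspension.

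**Figure D1:**
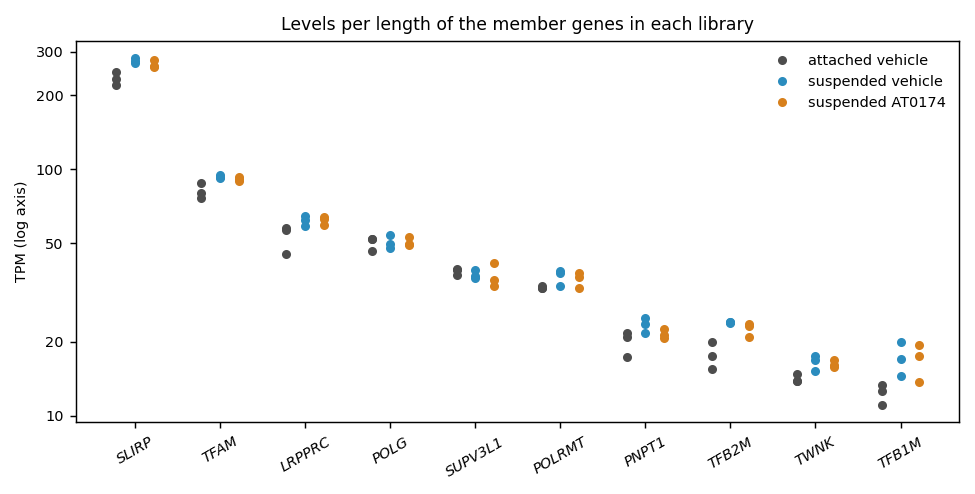
Level per length of each member gene (TPM, log axis) in the 9 libraries, 1 point per library and 1 color per group, with genes ordered by their mean. SLIRP stood above TFAM in every library, and the points of each gene lay close together against the spread between genes.

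Not all neighbors in that order were apart. In attached cells the libraries of LRPPRC and POLG overlapped, as did those of PNPT1 and TFB2M, while the other 7 neighboring pairs did not. In both suspended groups SUPV3L1 overlapped with POLRMT, TFB2M with PNPT1 and TFB1M with TWNK.

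Forced suspension was compared with attachment under vehicle, to ask which of these genes moved when the cells lost their support. Of the 10 members, 4 rose and 0 fell: TFB2M, LRPPRC, TFAM and SLIRP. Over all 15528 genes tested, 21.2% were called at an adjusted p under 0.05 (edgeR quasi-likelihood test, Benjamini-Hochberg), 10.4% higher and 10.8% lower. The median log2 difference of the members was 0.13, and 9 of 10 were above 0, beside a median of −0.00025 over all genes tested. The libraries of 5 members did not overlap on the higher side, the 4 and TFB1M, where 19.4% of all genes tested did so. The 4 rises were small, between 10.7% and 25.5%. With counts rebuilt from TPM, TFB2M alone was called among the 4, and the adjusted p was 0.209 for TFAM, 0.378 for LRPPRC and 0.069 for SLIRP, all with positive differences. In bulk RNA a change in the amount of RNA per cell and a change in which cells survived cannot be told apart.

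TFAM (ENSG00000108064, chr10:58385345-58399220, plus strand) is the protein that coats mitochondrial DNA. It had 98.6, 96.5 and 93.0 CPM in the attached libraries, 103, 111 and 104.2 in suspended vehicle, and 109, 108 and 108 in suspended AT0174. All 6 suspended libraries lay above all 3 attached ones. With vehicle, TFAM rose by 0.15 ± 0.037 (log2, SE; adjusted p = 0.0159), and with AT0174 it stood 0.17 above attached cells (adjusted p = 0.00588). Without attached replicate 3 the first difference was 0.12 and missed the threshold (adjusted p = 0.0632), and without suspended vehicle replicate 2 it was 0.11 (adjusted p = 0.0689).

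POLRMT (ENSG00000099821, chr19:617221-633537, minus strand), the polymerase that TFAM recruits, had 79.3, 78.8 and 80.6 CPM in attached cells. The suspended vehicle libraries had 74.5, 83.0 and 83.0 CPM, and those with AT0174 had 83.7, 84.1 and 77.9. The attached values lay within the range of each suspended group. The vehicle difference was 0.01 on the log2 scale, with a 95% interval of −0.089 to 0.11 (adjusted p = 0.888). Rows of its pseudogene POLRMTP1 held 2.76 to 3.60 CPM, against at least 74.5 for POLRMT itself, and reads shared between these copies could be split between them.

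TFB2M (ENSG00000162851, chr1:246540561-246566261, minus strand), which melts the promoter DNA, showed the largest rise among the members. It had 23.1, 20.6 and 18.7 CPM in attached cells, 26.7, 25.96 and 25.7 in suspended vehicle, and 26.03, 26.7 and 23.3 with AT0174. Every suspended library lay above every attached one. The vehicle difference was 0.33 ± 0.072 on the log2 scale, or 25.5% (adjusted p = 0.00801), and TFB2M was the only member called in this comparison under each of 16 alternative settings, with differences from 0.26 to 0.41. Its table lists 1 transcript, so the estimate did not depend on how reads were divided among isoforms.

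TFB1M (ENSG00000029639, chr6:155256134-155314493, minus strand), the paralog of TFB2M, methylates the small ribosomal RNA of the mitochondrion. Its values were 12.1, 11.6 and 9.94 CPM in attached cells, 12.6, 13.2 and 13.6 in suspended vehicle, and 12.6, 14.3 and 11.8 with AT0174. The suspended vehicle libraries lay above the attached ones, but those with AT0174 overlapped them. The vehicle difference of 0.23 ± 0.087 did not pass the test (adjusted p = 0.0805), although it passed when no filter on low counts was used (adjusted p = 0.0286). TFB1M shares 1264 exon bases with TIAM2 on the opposite strand, a gene with 86.2 estimated counts on average against 518 for TFB1M.

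**Figure D2:**
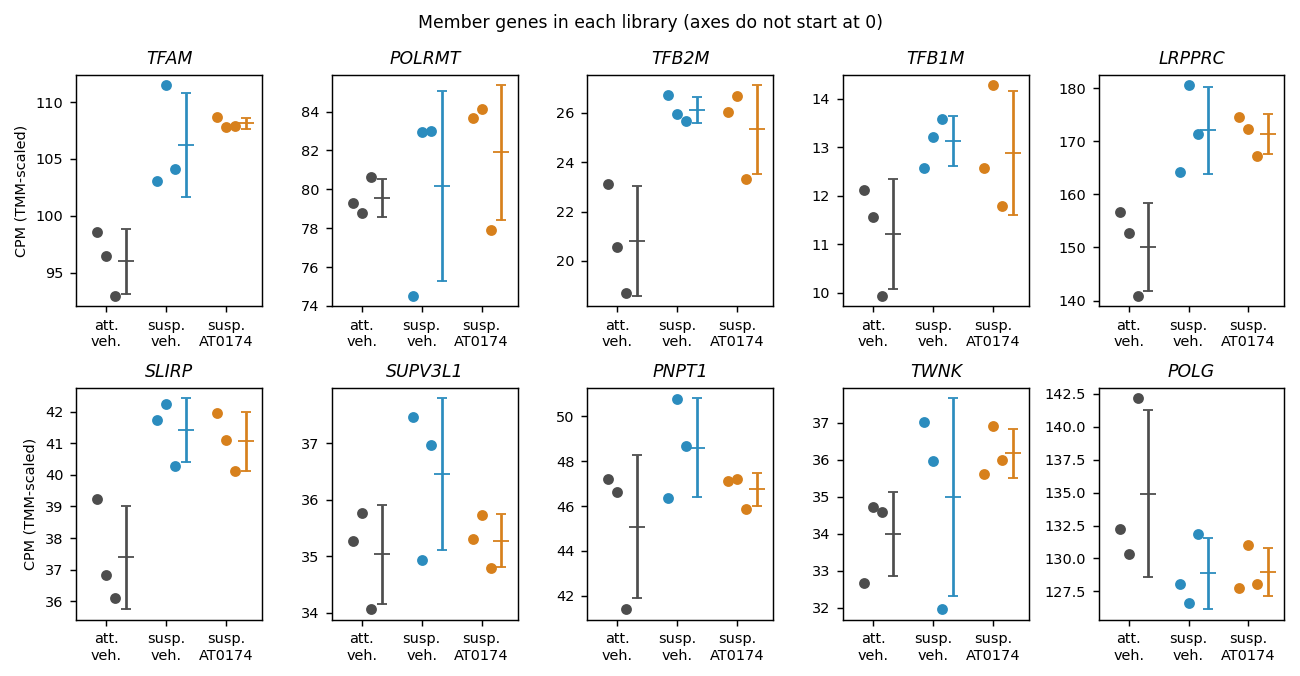
CPM of each member gene in the 3 attached vehicle, 3 suspended vehicle and 3 suspended AT0174 libraries, with the mean and SD beside the points and a separate axis for each gene that does not start at 0. The suspended libraries of TFAM, TFB2M, LRPPRC and SLIRP all stood above the attached ones, and the suspended groups overlapped each other in every panel.

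Both members of the RNA stability complex rose. LRPPRC (ENSG00000138095, chr2:43886224-43996226, minus strand) binds mitochondrial messengers and supports their polyadenylation, and had 157, 153 and 141 CPM in attached cells, 164, 181 and 171 in suspended vehicle, and 175, 172 and 167 with AT0174. The suspended libraries did not overlap the attached ones. The vehicle difference was 0.20 ± 0.045 on the log2 scale, or 14.6% (adjusted p = 0.00907), and remained past the threshold whichever library was left out.

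SLIRP (ENSG00000119705, chr14:77708071-77761104, plus strand) is the partner that keeps LRPPRC stable. It had 39.2, 36.8 and 36.1 CPM in attached cells, 41.7, 42.2 and 40.3 in suspended vehicle, and 42.0, 41.1 and 40.1 with AT0174, again with no overlap between attached and suspended libraries. The vehicle difference was 0.15 ± 0.043, or 10.8% (adjusted p = 0.0295). This call was the least firm of the 4: it was kept under 9 of 16 alternatives, and leaving out 1 library raised the adjusted p to 0.108 for attached replicate 3, 0.0828 for attached replicate 2, 0.0642 for replicate 1 of suspended vehicle and 0.0955 for its replicate 2. Within a library, the ratio of LRPPRC to SLIRP by TPM was 0.228 ± 0.0220 in attached cells, 0.225 ± 0.00905 in suspended vehicle and 0.234 ± 0.00571 with AT0174 (SD, n = 3). The ranges of the ratio overlapped between the attached group and each suspended group.

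The decay pair was not called. SUPV3L1 (ENSG00000156502, chr10:69180234-69209099, plus strand), the helicase, had 35.3, 35.8 and 34.1 CPM in attached cells, 37.5, 34.9 and 37.0 in suspended vehicle, and 35.3, 35.7 and 34.8 with AT0174. The difference with vehicle was 0.06 (95% interval −0.033 to 0.15, adjusted p = 0.364). With counts rebuilt from TPM it was −0.14, so no direction can be given. PNPT1 (ENSG00000138035, chr2:55634061-55693863, minus strand), the nuclease, had 47.2, 46.6 and 41.4 CPM in attached cells, 46.4, 50.8 and 48.7 in suspended vehicle, and 47.1, 47.2 and 45.9 with AT0174. Its vehicle difference was 0.11 (95% interval −0.0046 to 0.22, adjusted p = 0.163), with libraries that overlapped.

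The replication pair was not called either. TWNK (ENSG00000107815, chr10:100987367-100994403, plus strand), the helicase Twinkle, had 32.7, 34.7 and 34.6 CPM in attached cells, 37.0, 36.0 and 31.96 in suspended vehicle, and 35.6, 36.9 and 36.0 with AT0174. Its AT0174 libraries all lay above the attached ones, yet the difference of 0.09 did not pass (adjusted p = 0.256). POLG (ENSG00000140521, chr15:89305198-89334861, minus strand), the catalytic subunit of the mitochondrial DNA polymerase, had 132, 130 and 142 CPM in attached cells, 128, 127 and 132 in suspended vehicle, and 128, 131 and 128 with AT0174. It was the only member with a negative vehicle difference, −0.07 (95% interval −0.15 to 0.013, adjusted p = 0.225). On the opposite strand, POLG shares 458 exon bases with FANCI (5155 estimated counts on average against 5437 for POLG), TWNK shares 149 with MRPL43 (2456 against 1458) and SLIRP, a called gene, shares 118 with SNW1 (7193 against 1667). Where counting did not use strand, reads of these shared bases cannot be told apart.

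**Figure D3:**
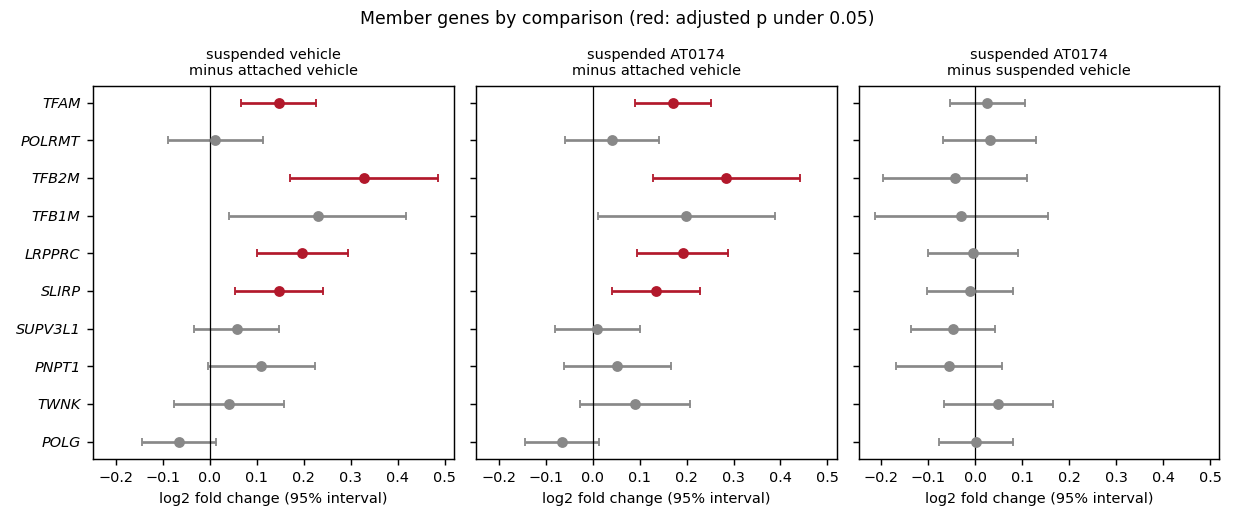
Log2 fold change of each member gene in the 3 comparisons, with 95% intervals from the edgeR fit and red for an adjusted p under 0.05. TFAM, TFB2M, LRPPRC and SLIRP were called in both comparisons with attached cells, and no gene was called between AT0174 and vehicle in suspension.

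AT0174 was compared with vehicle in suspended cells to ask whether the inhibitor moved these genes. Of the 10 members, 0 were called by edgeR, 0 by DESeq2 and 0 by limma-voom, and 0 had an unadjusted p under 0.05. Among all genes tested, 0.779% were called, 0.522% higher and 0.258% lower. The largest member difference was −0.06 for PNPT1 (adjusted p = 0.830), and the smallest unadjusted p was 0.274, for SUPV3L1 at −0.05. The libraries of the 2 groups overlapped for every member, while 7.75% of all genes tested were apart on the higher and 7.66% on the lower side. The 95% intervals of all 10 members lay between −0.21 and 0.16 on the log2 scale, the lower end set by TFB1M and the upper by TWNK. For TFAM the interval was −0.054 to 0.11, and for POLG −0.078 to 0.080. Each interval is for its gene alone and is not joint over the members, so a larger change is not excluded.

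Suspended cells with AT0174 were also set against attached vehicle cells, a comparison that shares libraries with the other two and is given side by side with them. Here 4 of 10 members rose and 0 fell, while 24% of all genes tested were called, 12.2% higher and 11.8% lower. The libraries of 5 members, these 4 and TWNK, lay apart on the higher side, as did 20.4% of all genes tested, with 19.1% apart on the lower side. The 4 were again TFB2M, LRPPRC, TFAM and SLIRP. TFB2M was at 0.28 (adjusted p = 0.0135), LRPPRC at 0.19 (adjusted p = 0.00858) and SLIRP at 0.14 (adjusted p = 0.0376). TFAM and LRPPRC kept their calls whichever library was left out. TFB2M missed the threshold without attached replicate 3 (adjusted p = 0.0570) and without AT0174 replicate 1 (adjusted p = 0.0531), and SLIRP missed it in 5 of 6 such fits, with adjusted p up to 0.134. With counts rebuilt from TPM, 0 members were called.

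The 13 messenger RNAs of the mitochondrial genome, the products of these factors, were measured in the same libraries. All 13 fell in suspended vehicle cells against attached cells, with a median log2 difference of −1.06 and a range of −1.35 (MT-ND1) to −0.48 (MT-ND3). Each of the 13 was called by edgeR (adjusted p at most 0.00128), where 10.8% of all genes tested were called lower. With AT0174, all 13 were also called lower than in attached cells (adjusted p at most 0.00244), at a median of −0.92, beside 11.8% of all genes tested. Between AT0174 and vehicle in suspension, 0 of the 13 were called by edgeR and 1 had an unadjusted p under 0.05. Over all 15528 genes tested, 0.779% were called and 1401 had such a p. All 13 differences were above 0, with a median of 0.17, but they come from the same libraries and are not independent. The mitochondrial share of AT0174 replicate 1, 3.73%, lay below every suspended vehicle library (4.05% to 4.34%), while replicates 2 and 3 lay above them. The members called in suspension and the mitochondrial messengers thus moved in opposite directions, and whether they are linked was not tested.

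The 71 other nuclear genes of the same pathway were grouped in 6 lists. In suspended vehicle against attached cells, 11 of the 71 rose and 2 fell, where 10.4% of all genes tested were called higher and 10.8% lower, with a median log2 difference of 0.04. Among them 23 did not overlap on the higher side and 7 on the lower side, where 19.4% and 18.7% of all genes tested were apart. Against attached cells with AT0174 in suspension, 12 rose and 4 fell, where 12.2% and 11.8% of all genes tested did so. The 4 were the tRNA modification genes GTPBP3 at −0.24, TRMU at −0.16 and CDK5RAP1 at −0.15, and MTERF4, which works in ribosome assembly, at −0.17. Between AT0174 and vehicle, 0 of the 71 were called by edgeR, where 0.779% of all genes tested were. An unadjusted p under 0.05 was found for 6 of the 71, beside 1401 of all 15528 genes tested.

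In the vehicle comparison, 11 of the 13 calls were in the lists for RNA processing and RNA granules. Of 16 granule and RNA-binding proteins, 7 rose and 1 fell, with a median of 0.12, beside the 10.4% and 10.8% over all genes. With AT0174 against attached cells, 5 of the 16 rose and 0 fell, with a median of 0.07, beside 12.2% and 11.8%. DDX28, a helicase of the granule that assembles the mitochondrial ribosome, had 17.7, 18.0 and 16.5 CPM in attached cells and 22.1, 23.0 and 20.8 in suspended vehicle. It rose by 0.33 ± 0.061 (log2, SE; adjusted p = 0.00319), with no overlap. FASTKD2, which binds mitochondrial ribosomal RNA and messengers, rose by 0.27 ± 0.052 (adjusted p = 0.00435), and TBRG4 rose by 0.16 ± 0.036 (adjusted p = 0.00816). FASTK, whose short form is needed for the ND6 messenger, was the gene that fell, by 0.20 on the log2 scale from 75.2, 76.1 and 84.8 CPM to 64.8, 69.2 and 72.0 (adjusted p = 0.0301). With AT0174 it was at −0.13 against attached cells and was not called (adjusted p = 0.135).

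Of 10 genes for RNA cleavage and 3′ ends, 3 rose and 0 fell in suspended vehicle against attached cells. Over all genes tested, 10.4% were called higher and 10.8% lower. LACTB2, an endoribonuclease, rose by 0.30 ± 0.056 (adjusted p = 0.00362) from 14.2, 14.7 and 13.4 CPM to 17.9, 16.5 and 17.5. MTPAP, the mitochondrial poly(A) polymerase, rose by 0.25 ± 0.049 (adjusted p = 0.00448), and PDE12, which removes poly(A) tails, rose by 0.20 ± 0.042 (adjusted p = 0.00679). The genes that add and that remove the tail were thus both higher. With AT0174, LACTB2 stood 0.36 and MTPAP 0.27 above attached cells.

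In suspended vehicle against attached cells, 1 of 6 further transcription factors rose, MRPL12, a ribosomal protein that also binds POLRMT, at 0.19 ± 0.059 (adjusted p = 0.0380). The shares over all genes tested in this comparison were 10.4% higher and 10.8% lower. Of 16 further replication and upkeep genes 0 were called in this comparison by edgeR, while 15 tRNA and rRNA modification genes gave 1 call, the tRNA modification gene GTPBP3, which fell by 0.21 (adjusted p = 0.0373). With AT0174 against attached cells, 1 of the 15 modification genes rose and 3 fell, where 12.2% and 11.8% of all genes tested did so. Of 8 nuclear regulators 0 were called in suspended vehicle against attached cells. NRF1, which encodes NRF-1, was at 0.13 (adjusted p = 0.0974), GABPA was at 0.09 (adjusted p = 0.136) and the coactivator gene PPARGC1A had at most 1.81 CPM in any library. With AT0174, GABPB1, the partner of GABPA, stood 0.21 above attached cells (adjusted p = 0.00932), with 23.0, 25.4 and 24.4 CPM in attached cells and 28.6, 26.7 and 28.8 in the treated ones.

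**Figure D4:**
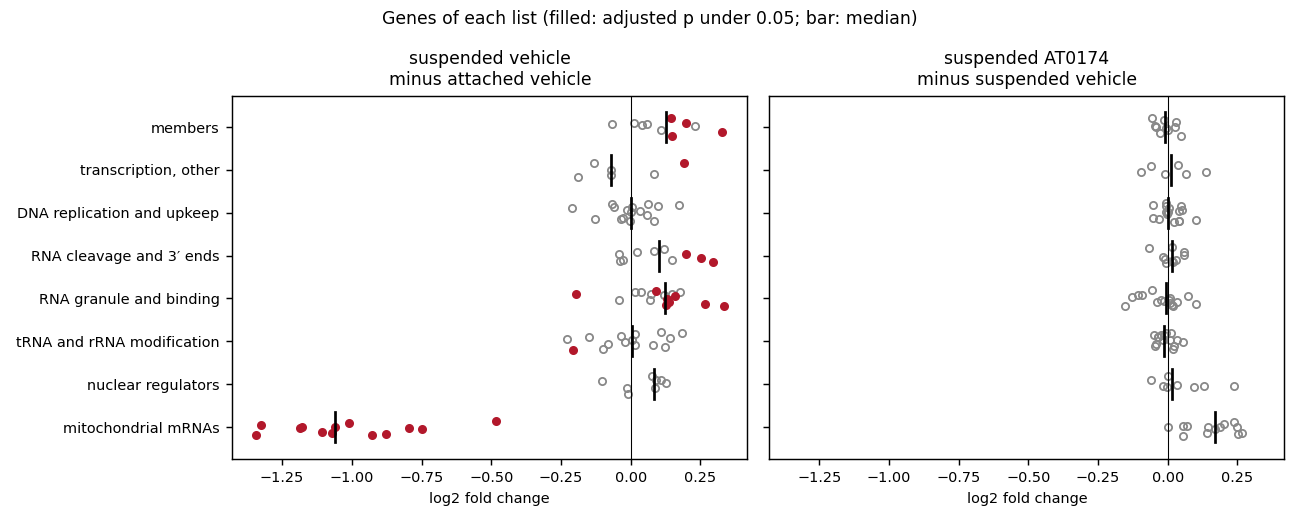
Log2 fold change of each gene by list, for suspended vehicle against attached vehicle (left) and AT0174 against vehicle in suspension (right), with filled points for an adjusted p under 0.05 and a bar at the median. On the left the 13 mitochondrial messengers lie at −0.48 or lower while the members have a median of 0.13, and on the right no point is filled.

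The transcripts behind each gene were read from the estimates of Salmon, which divides reads among isoforms. SLIRP, POLRMT and TWNK were made up mainly of their reference (MANE Select) transcript, with 93.0% ± 0.850, 88.6% ± 1.62 and 71.4% ± 3.67 of the gene in attached cells (SD, n = 3). PNPT1 was instead assigned mainly to PNPT1-202, which GENCODE marks as a target of nonsense-mediated decay, with 74.1% ± 3.27 in attached cells and 71.2% ± 1.05 in suspended vehicle. LRPPRC was spread most widely, with 51 of its 71 listed transcripts above 0 and none over 26.6% of the gene in a group mean. LRPPRC-262, the transcript with the highest mean TPM over the 9 libraries, is also marked as a target of nonsense-mediated decay. It stood below LRPPRC-231 in attached cells, at 19.0% against 25.1%, and the reference transcript LRPPRC-201 held 3.51% there. The leading transcript of TFB1M, TFB1M-203, has no coding sequence defined in GENCODE and held 40.0% ± 5.09 in attached cells.

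SUPV3L1 was the only member whose leading share did not overlap between attached and suspended vehicle cells, a contrast picked out after the values were seen. Its full-length reference transcript SUPV3L1-201 made up 34.6% to 42.9% of the gene in attached cells and 47.2% to 52.9% in suspended vehicle, with means of 39.1% ± 4.20 and 49.4% ± 3.02. The libraries did not overlap, and the exact two-sided permutation test gave p = 0.1, the smallest that 3 against 3 libraries allow, so the design could not reach the threshold. The AT0174 libraries, at 45.8% ± 7.59, overlapped both groups. The mean transcript length of the gene, weighted by TPM, was 1414 bases in attached cells and 1608 in suspended vehicle. LRPPRC-262 held 16.5% to 20.9% of its gene in attached cells and 21.2% to 24.3% with AT0174, again apart at p = 0.1 in the same exact test, but its libraries with vehicle in suspension, at 26.6% ± 7.08, overlapped the attached ones.

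**Figure D5:**
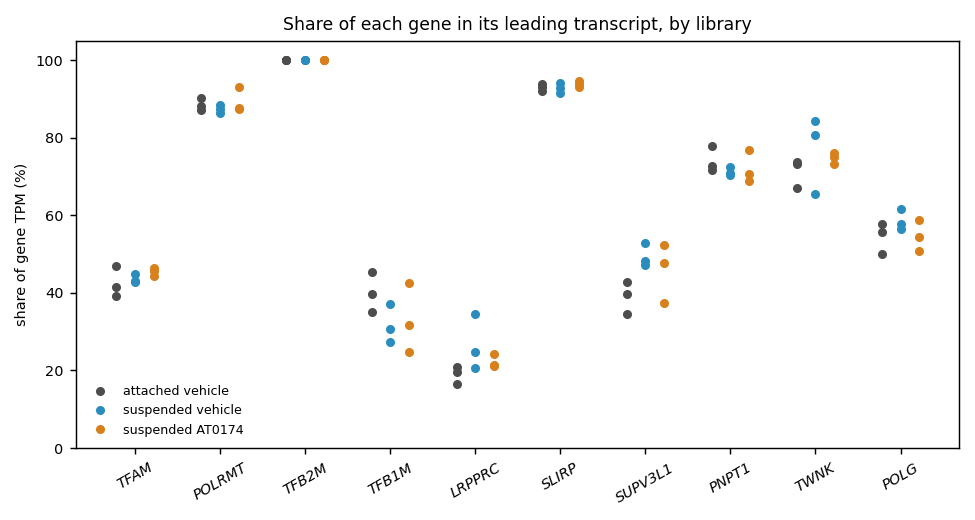
Share of each member gene's TPM (%) held by the transcript with the highest mean TPM over the 9 libraries (for LRPPRC not the highest in attached cells), 1 point per library and 1 color per group. SUPV3L1 in suspended vehicle stands above all attached libraries, TFB2M is at 100% because 1 transcript is listed, and the suspended groups overlap for every gene.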

How the data were processed

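RNA of MDA-MB-453 cells was sequenced as mRNA libraries. The labels name a SMARTER kit and the methods of the study a Universal Plus kit, and whether counting used strand is not given in the sources used here. Per the submitters' processing notes, bcl2fastq 2.20.0.422, Trim Galore 0.6.7, cutadapt 3.4, STAR 2.7.9a and Salmon 1.10.1 were used on GRCh38. The authors deposited a table of estimated counts per gene and Salmon files with TPM and estimated counts per transcript. 0 columns belonged to other samples.

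Estimated counts were rounded, filtered with filterByExpr, scaled by TMM and fitted in edgeR 4.0.16 (R 4.3.3) over all 9 libraries by condition only, with glmQLFTest and Benjamini-Hochberg adjustment over all genes tested (threshold 0.05). CPM are TMM-scaled and intervals are 95% from that fit. TPM were summed per gene and used for levels and transcript shares only. Gene positions and overlaps came from GENCODE 44, on the build of the files, and promoter sequences from RefSeq. Fits were tested on simulated counts first. Replicate pairs differed by more than sampling noise in all groups, so no library was counted as a duplicate.

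The members and lists were chosen with earlier results of these data known. All members are named, and from each pathway list at most 3 genes per direction and comparison, by smallest p among those called; the regulator genes and single mitochondrial messengers without a call were named after their values were seen. Alternatives were DESeq2 1.42.0 (size factors and Wald test), limma-voom 3.58.1, other filters, a replicate block, counts rebuilt from TPM, no mitochondrial genes, the 6 libraries of a contrast, a threshold of 0.01 and leaving out each library; length-scaled counts from TPM were added after seeing the data.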

Additional observations from a re-analysis of the deposited data

How the results depend on the processing

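The number of members called in suspended vehicle against attached cells was 4, and fell to 2 at an adjusted p threshold of 0.01, 1 with counts rebuilt from TPM, 1 with length-scaled counts and 2 to 4 when each library was left out (2 with either attached replicate 3 or the second suspended vehicle library removed). For AT0174 against attached cells these were 2, 0, 1 and 2 to 4. For the pathway lists they were 6, 8, 8 and 7 to 11 with vehicle, and 6, 8, 9 and 7 to 16 with AT0174. For all genes they were 1405, 1396, 1714 and 1935 to 2693 with vehicle (1935 on dropping attached replicate 3, 1951 on dropping suspended vehicle replicate 2), and 1839, 1802, 2056 and 2239 to 3276 with AT0174 (2239 without AT0174 replicate 1, 2381 without attached replicate 3). Between AT0174 and vehicle in suspension the 121 genes called became 52, 31, 35 and 63 to 86, and were 239 by DESeq2 and 499 with no filter on low counts. The cause was not tested. No member was called between AT0174 and vehicle under any alternative run.

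Sign changes were limited to differences that were not called. With counts rebuilt from TPM and with length-scaled counts, SUPV3L1 was −0.14 and −0.14 for suspended vehicle, −0.12 and −0.12 for AT0174 against attached cells, and 0.022 and 0.019 for AT0174 against vehicle, where LRPPRC was 0.048 and 0.045 and TFB1M 0.018 and 0.014. POLG between AT0174 and vehicle was −0.00048 by DESeq2, −0.00045 with its size factors, −0.0038 with at least 10 counts in every library and −0.0015 without the mitochondrial genome. When each library was left out, the ranges that crossed 0 between AT0174 and vehicle were −0.00035 to 0.057 for TFAM, −0.024 to 0.059 for POLRMT, −0.081 to 0.0078 for TFB2M, −0.11 to 0.024 for TFB1M, −0.042 to 0.026 for LRPPRC, −0.016 to 0.086 for TWNK and −0.016 to 0.015 for POLG. Between suspended vehicle and attached cells POLRMT ran from −0.012 to 0.064, and between AT0174 and attached cells PNPT1 ran from −0.0053 to 0.088 and SUPV3L1 from −0.0098 to 0.026.

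Same-numbered libraries deviated together with correlations from −0.096 to 0.12, so the numbers were not taken to pair the samples. With the replicate block, 4, 0 and 4 members, 12, 0 and 17 pathway genes and 3250, 146 and 3677 genes were called in the 3 comparisons (suspended vehicle against attached, AT0174 against vehicle, AT0174 against attached). The members had at least 386 estimated counts in every library, the lowest being TFB1M.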
